A study of Mus musculus with 5 samples.

Results

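The genes described here are 46 mouse genes of DNA replication and S phase, listed by name. The list is by function and not by measured value, but it was drawn up with earlier results of these data known. The helicase genes Mcm2 to Mcm7 were left out of that list and serve as a comparison. Of the 46, 44 had transcripts in the files, 40 were above 0 in some library and 31 reached the mean level of 1 FPKM at which genes were tested, out of 49246 genes in all, 20679 above 0 and 10770 tested. FPKM counts sequenced fragments by transcript length and by the size of the library, and a gene's value is the sum over its transcripts. Cdt1 and Gins2 were not analysed here.

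RNA was sequenced from bone marrow-derived macrophages (BMDM) of C57BL/6 wild type mice, cells grown from marrow for 6 days with CSF1 or L929 supernatant until 96% carried F4/80 and CD11b. In the group labelled IL4+CBR-5884 (3 libraries, replicates 3, 4 and 5), cells received 30 µM CBR-5884, which inhibits PHGDH, the first enzyme of serine synthesis, and then 10 ng/ml IL-4, the cytokine of alternative macrophage activation, for 24 h. In the group labelled IL4+solvent (2 libraries, replicates 3 and 5), cells received solvent and the same IL-4. Whether each replicate is an animal or culture of its own is not given in the sources used here, so the p-values rest on library-to-library spread that may be technical.

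Before S phase, origins of replication are licensed by the origin recognition complex with Cdc6 and Cdt1, which load the MCM helicase, and the helicase is then switched on by Cdc45 and the GINS complex. Polymerases and primase copy the strands with the help of the sliding clamp PCNA, its loader RFC and the single-strand binding complex RPA, while enzymes of nucleotide synthesis supply the building blocks. Many of these genes are transcribed at the entry to S phase under E2F factors, and some also serve DNA repair in cells that do not divide. Macrophages grown with CSF1 can still divide.

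Promoter sequence was looked at first, since E2F is the factor known for this group of genes. RefSeq promoters (GRCm38.p6, 250 bases before to 50 after each start) were found for 38 of the 46 members. An E2F word was any of TTTCGCGC, TTTGGCGC, TTTCCCGC and TTTGCCGC on either strand. Such a word was in the promoters of 12 of these 38 members (31.6%), namely Orc1, Cdc6, Cdt1, Gins3, Pola1, Pold1, Pole2, Rfc3, Lig1, Uhrf1, Dnmt1 and Clspn, against 2.60% of all 27025 genes with a promoter and 4.86% of those that were tested for expression. The letters CCAAT, the word of the factor NF-Y, were in 23 members (60.5%), against 41.1% of all genes and 42.9% of tested ones. The word TTTGAA, an element of genes of the later cell cycle, was in 5 members (13.2%), against 20.2% of all genes and 14.4% of tested ones. None of these words contains another, both strands were read for each, and a match describes letters and not a bound site.

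The 250 bases before the start are shown for 5 members, 5′ to 3′ on the gene's strand, with the E2F word in capitals. They were picked after values were seen: Uhrf1 had the most negative log2 fold change of the tested members, Cdc6 the smallest share of the solvent mean left, and Rfc3 a small difference. Rrm2 and Pcna, the most abundant member, have no such word in these bases.
Uhrf1: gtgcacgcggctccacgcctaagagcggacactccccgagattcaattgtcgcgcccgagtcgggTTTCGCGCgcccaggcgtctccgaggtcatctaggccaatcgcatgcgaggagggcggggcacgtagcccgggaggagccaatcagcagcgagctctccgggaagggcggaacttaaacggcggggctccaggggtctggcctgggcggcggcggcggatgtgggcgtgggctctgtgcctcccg
Cdc6: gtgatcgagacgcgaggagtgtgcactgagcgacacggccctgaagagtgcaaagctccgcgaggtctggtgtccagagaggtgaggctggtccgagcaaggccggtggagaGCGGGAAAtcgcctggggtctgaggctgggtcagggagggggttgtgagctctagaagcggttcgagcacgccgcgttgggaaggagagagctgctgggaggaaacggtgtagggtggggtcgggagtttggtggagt
Rfc3: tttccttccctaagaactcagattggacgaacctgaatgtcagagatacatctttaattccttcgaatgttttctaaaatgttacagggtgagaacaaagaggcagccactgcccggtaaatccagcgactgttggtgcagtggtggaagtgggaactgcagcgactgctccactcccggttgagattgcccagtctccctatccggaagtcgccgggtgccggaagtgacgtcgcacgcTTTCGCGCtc
Rrm2: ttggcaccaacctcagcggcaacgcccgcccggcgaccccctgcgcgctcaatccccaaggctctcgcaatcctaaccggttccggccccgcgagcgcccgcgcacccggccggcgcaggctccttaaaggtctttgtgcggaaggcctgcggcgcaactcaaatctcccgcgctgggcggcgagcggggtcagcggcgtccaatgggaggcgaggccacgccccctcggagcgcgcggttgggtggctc
Pcna: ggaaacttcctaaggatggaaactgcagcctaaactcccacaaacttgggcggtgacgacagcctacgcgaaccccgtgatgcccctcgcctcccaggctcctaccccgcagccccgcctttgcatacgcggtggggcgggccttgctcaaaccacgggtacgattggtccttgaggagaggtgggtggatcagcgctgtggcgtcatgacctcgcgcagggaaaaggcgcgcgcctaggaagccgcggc
The Uhrf1 stretch is chr17:56304063-56304312 on the plus strand, from the start that holds the word, which begins 185 bases before it. The Cdc6 stretch is chr11:98907901-98908150 on the plus strand, with the word on the other strand beginning at 138 bases before the start. The Rfc3 stretch is chr5:151651209-151651458 on the minus strand, with the word 10 bases before the start. The Rrm2 stretch is chr12:24708004-24708253 on the plus strand and the Pcna stretch chr2:132253181-132253430 on the minus strand. The 8 tested members with a word anywhere in the promoter had a median log2 fold change of -0.25 (range -1.57 to -0.01), and the 18 tested members without had -0.25 (range -1.45 to 0.14), so both kinds hold large and small differences.

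Across the members, levels with CBR-5884 were mostly below those with solvent, by small amounts for most genes and by several-fold for a few. The log2 fold change (of FPKM with 1 added, a scale that compresses changes in low genes) was negative for 29 of the 31 tested members, against 55.7% of all genes tested. The count was 26 of 31 with reference transcripts only and 23 of 30 with each gene's most abundant one. The median was -0.25 over the members and -0.03 over all genes. A gene can reach the testing level through its solvent libraries alone, so these counts are descriptions. Without the level filter, 38 of 40 members were negative, against 53.8% of all genes in that fit. The summed FPKM of all members was 394.0, 413.4 and 423.1 in the CBR-5884 libraries (replicates 3, 4 and 5, the order used throughout) and 451.4 and 482.2 in the solvent libraries (replicates 3 and 5). Without Pcna, which makes up much of that sum, it was 215.2, 217.6 and 226.6 against 266.3 and 274.0. Both sums were lower in every CBR-5884 library than in either solvent library. The sum over all genes had the same order, at 480411, 481128 and 482163 FPKM against 494505 and 527851 FPKM, so this order is not particular to the members. On a TPM scale, which sets the sum of every library alike, 28 of 31 members were negative, against 48.3% of all genes.

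No single member passed the test. With limma and Benjamini-Hochberg adjustment over all 10770 genes, 0 members were called lower or higher at an adjusted p below 0.05, where 0.176% of all genes (19) were called lower and 0.0464% (5) higher. On a TPM scale the same calls over all genes numbered 15 and 7, and lower calls numbered 82 without solvent replicate 3 and 56 without solvent replicate 5, each time with 0 members. The lowest adjusted p of a member was 0.0761, for Uhrf1. At an unadjusted p below 0.05, 14 of the 31 members were lower and 0 higher, against 12.4% and 7.24% of all genes, and 9 were lower when only reference transcripts were summed. The 14 were Uhrf1, Rrm2, Rrm1, Dut, Lig1, Rpa2, Rpa1, Gmnn, Pola1, Pola2, Prim1, Pold1, Dnmt1 and E2f1. The CBR-5884 and solvent values did not overlap for 23 of the 31: 22 members were lower in all 3 CBR-5884 libraries than in both solvent libraries (24.9% of all genes), Chaf1a with a zero among them, and 1, Rfc5, was higher (16.6%). The other 8 members overlapped. In bulk RNA, fewer cells in S phase and less RNA per cell cannot be told apart.

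All 8 macrophage markers were above 1 FPKM on average, and their summed FPKM was 9743 to 13078 with CBR-5884 and 11011 to 13092 with solvent. Most of that sum was Lyz2, at 6964 to 10241 FPKM against 8456 to 10378 FPKM. Cd68 and Itgam were higher in every CBR-5884 library than in either solvent library. Cd14 and Fcgr1 were lower in the same way, the others overlapped and 0 of the 8 were called. Sums for other cell types were far lower, and some differed between the groups. Within them S100a8, at 7.03 to 10.6 FPKM over all libraries, stood near Fcgr1, at 6.85 to 13.3 FPKM. The 5 monocyte markers summed to 4.18 to 4.66 FPKM against 8.71 to 9.72 FPKM, most of it Ccr2, which was called lower (log2 fold change -0.97, limma adjusted p = 0.0395). The 10 markers of neutrophils and their precursors summed to 10.5 to 13.7 FPKM against 11.1 to 22.2 FPKM, with Ly6g and Prtn3 at 0 in all libraries. Of these, S100a8 overlapped, at 9.32 to 10.6 FPKM against 7.03 to 10.1 FPKM. The sum of 22.2 held 9.49 FPKM of S100a9 in solvent replicate 3, where solvent replicate 5 had 2.35 FPKM. The 6 stromal markers summed to 11.0 to 17.5 FPKM against 18.2 to 19.2 FPKM, the 6 dendritic cell markers to 0.609 to 1.21 FPKM against 1.40 to 2.38 FPKM, and the 5 stem and progenitor markers to 0.808 to 1.02 FPKM against 0.816 to 1.58 FPKM. Most of the stromal sums was Col1a1 and Col1a2, while Dcn and Pdgfrb overlapped with slightly higher means with CBR-5884. The progenitor sum of 1.58 held 0.620 FPKM of Cd34 in solvent replicate 3, and Cd34 was at 0 in all other libraries. Markers of T and NK, B and mast cells each summed to under 1 FPKM, with Cd3d, Cd3e, Cd3g and Ncr1 at 0. Their part in the lower levels of the members was not tested. Depth, read from the ratio of deposited coverage to FPKM, was 30230000 to 30700000 fragments with CBR-5884 and 28310000 to 28850000 with solvent.

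**Figure D1:**
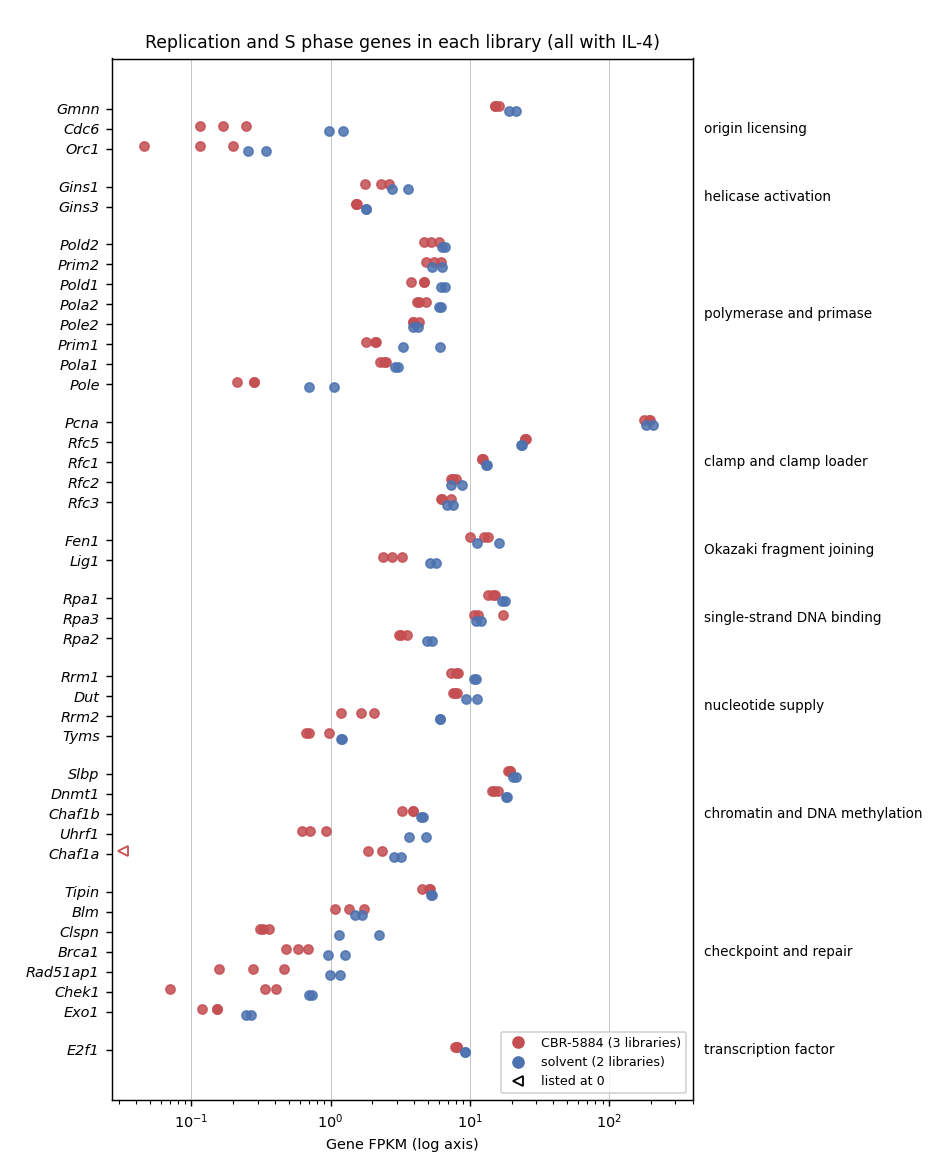
Gene FPKM (log axis) of the 40 members above 0 in some library, grouped by role, with each red point a CBR-5884 library (3) and each blue point a solvent library (2). The red points of Uhrf1, Rrm2, Cdc6 and Clspn lie well to the left of the blue ones, while those of Pcna and Pole2 mix with them, and the open triangle marks Chaf1a in CBR-5884 replicate 4, listed at 0.

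Nucleotide supply held one of the widest gaps. Rrm2, the regulated small subunit of ribonucleotide reductase, which makes deoxynucleotides (chromosome 12, 24708241 to 24714146, GRCm38, plus strand), was at 1.20, 1.65 and 2.05 FPKM with CBR-5884, compared with 6.15 and 6.10 FPKM with solvent. The groups were far apart, at 1.63 ± 0.43 (SD, n = 3) against 6.12 ± 0.04 (n = 2), with 26.7% of the solvent mean left. The fitted difference was -1.45 on the log2 scale with an SE of 0.16, at a limma adjusted p of 0.0857. Rrm1, the large subunit of the same enzyme, was at 7.31, 8.28 and 8.03 FPKM against 10.7 and 11.2 FPKM, also without overlap, with a log2 fold change of -0.43 ± 0.07 (SE; limma adjusted p = 0.122). For Rrm1, 72.1% of the solvent mean was left. Dut, the dUTPase that keeps uracil out of DNA, lay at 7.54 to 8.04 FPKM against 9.41 to 11.3 FPKM (log2 fold change -0.36, limma adjusted p = 0.162). Tyms, thymidylate synthase, stayed under the testing level, at 0.662, 0.701 and 0.974 FPKM with CBR-5884, compared with 1.18 and 1.20 FPKM with solvent, again apart. Tk1, thymidine kinase, was listed at 0 in all 5 libraries.

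Among the genes of chromatin and DNA methylation, Uhrf1 stood lowest. Uhrf1 encodes the factor that reads hemimethylated DNA behind the fork and recruits Dnmt1 (chromosome 17, 56303321 to 56323486, plus strand). It was at 0.711, 0.622 and 0.929 FPKM with CBR-5884, compared with 3.65 and 4.82 FPKM with solvent. The solvent libraries were both several times above every CBR-5884 library, and the means stood 5.62-fold apart (log2 fold change of -1.57 ± 0.16 SE, limma adjusted p = 0.0761). Summing transcripts weighted by their length, a choice made after seeing the data, gave -1.55 and a limma adjusted p of 0.0470, the only one of 18 alternatives in which a member was called. Over the alternatives that tested Uhrf1, its adjusted p ran from 0.0470 to 0.331. Dnmt1, the maintenance methyltransferase itself, was at 15.9, 14.5 and 14.9 FPKM against 18.5 and 18.1 FPKM, apart but by far less (log2 fold change of -0.26 ± 0.06 SE, limma adjusted p = 0.142, and 0.17 when only the most abundant reference transcript was read). From 31.6% to 89.7% of the Dnmt1 value in each library came from assembled transcripts.

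The remaining genes of that group load or supply histones. Slbp, which binds the stem-loop of histone mRNA, was at 19.6, 19.6 and 18.7 FPKM against 21.3 and 20.3 FPKM (log2 fold change -0.10, limma adjusted p = 0.342), a small gap without overlap. Chaf1a and Chaf1b are subunits of chromatin assembly factor 1. Chaf1b lay at 3.24 to 3.90 FPKM against 4.49 to 4.63 FPKM, a log2 fold change of -0.25 that was as high as 0.21 from reference transcripts, and 67.3% of its value in solvent replicate 5 came from assembled transcripts. Chaf1a was at 1.85, 0 and 2.34 FPKM against 2.88 and 3.20 FPKM, and its 46.0% of the solvent mean rests on the library listed at 0. Without that library, CBR-5884 replicate 4, its log2 fold change was -0.39, against -0.93 (limma adjusted p = 0.435) with all 5. The 2 CBR-5884 libraries above 0 were below both solvent libraries, and no level is read from the zero.

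Of the polymerase and primase genes, 7 were tested and all 7 were negative, 5 of them without overlap, at a median of -0.25 on the log2 scale. Over all genes tested, 55.7% were negative and 24.9% were lower without overlap. Pola2, the regulatory subunit of polymerase alpha, which starts each strand, was at 4.19, 4.30 and 4.86 FPKM against 6.17 and 5.98 FPKM (-0.38 ± 0.08 SE on the log2 scale, limma adjusted p = 0.139). Pold1, the catalytic subunit of polymerase delta for the lagging strand, was at 3.80, 4.67 and 4.70 FPKM against 6.26 and 6.68 FPKM (-0.47 ± 0.10 SE, limma adjusted p = 0.143). Its partner Pold2, the most abundant of the group, was at 6.02, 5.28 and 4.66 FPKM against 6.29 and 6.67 FPKM, a gap of similar size to the spread within groups (log2 fold change -0.25, limma adjusted p = 0.309). In all 3 genes both solvent libraries were above every CBR-5884 library.

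Within that group the subunits of one enzyme did not share one size of difference. Pole, the catalytic subunit of polymerase epsilon for the leading strand, was at 0.212, 0.281 and 0.280 FPKM against 0.701 and 1.05 FPKM, below the testing level. Its accessory subunit Pole2 lay at 3.90 to 4.29 FPKM against 3.90 to 4.26 FPKM (log2 fold change -0.01), was positive under 8 of 17 alternatives, the rescalings of the libraries among them, and shares exons with another gene on its strand. The primase subunits differed likewise: Prim2 overlapped, at 4.82 to 6.20 FPKM against 5.32 to 6.31 FPKM, and Prim1 was at 2.13, 1.81 and 2.08 FPKM against 6.14 and 3.33 FPKM. The groups did not overlap for Prim1 (log2 fold change -0.89, limma adjusted p = 0.176), but 69.5% of its value in solvent replicate 3 came from assembled transcripts, and without that library it was -0.53. Pola1, the catalytic subunit of polymerase alpha, lay at 2.26 to 2.51 FPKM against 2.88 to 3.07 FPKM, a log2 fold change of -0.23. It was as high as 0.72 from reference transcripts, but its only one is listed at 0 in solvent replicate 5. There 100% of the Pola1 value came from assembled transcripts, and no level is read from that zero.

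Joining of Okazaki fragments showed a like contrast. Lig1, DNA ligase 1, which seals the fragments, was at 2.40, 2.76 and 3.26 FPKM against 5.14 and 5.71 FPKM, well apart, with 51.7% of the solvent mean left (log2 fold change of -0.76 ± 0.12 SE, limma adjusted p = 0.122). Fen1, the flap endonuclease that trims them, was at 10.1, 12.7 and 13.6 FPKM against 11.4 and 16.1 FPKM, which overlapped (log2 fold change -0.16, limma adjusted p = 0.675, and 0.07 without solvent replicate 5). Its most abundant reference transcript alone gave -0.998. Fen1 shares 1909 exonic bases with the antisense gene Gm10143 and Lig1 shares 247 with Zswim9, both on the opposite strand.

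For the clamp and its loader, 5 genes were tested, 4 negative and 1 positive, at a median of -0.07 on the log2 scale. Pcna, the sliding clamp that holds polymerases on DNA (chromosome 2, 132249162 to 132253314, minus strand), was by far the most abundant member, at 178.8, 195.7 and 196.5 FPKM with CBR-5884, compared with 185.1 and 208.2 FPKM with solvent. The groups overlapped, at 190.3 ± 10.0 (SD, n = 3) against 196.7 ± 16.3 (n = 2), with a log2 fold change of -0.05 ± 0.08 (SE; limma adjusted p = 0.769) that was 0.04 without solvent replicate 5. Of its pseudogenes, Pcna-ps2 stood at 0.0866 to 0.334 FPKM and Pcna-ps1 was listed at 0. Rfc1, the large subunit of the loader RFC, was at 12.2, 12.4 and 12.3 FPKM against 13.1 and 13.3 FPKM, apart by little (log2 fold change -0.09, limma adjusted p = 0.327, and 0.06 for its most abundant reference transcript). Rfc5 (chromosome 5, 117378103 to 117389047, minus strand) was the only member higher in all CBR-5884 libraries, at 25.4, 24.8 and 25.0 FPKM against 23.3 and 23.6 FPKM (log2 fold change of 0.09 ± 0.04 SE, limma adjusted p = 0.318). It kept that sign in all 18 alternatives, and it shares 499 exonic bases with Wsb2 on the other strand. Rfc2, at 7.34 to 7.94 FPKM against 7.39 to 8.75 FPKM, and Rfc3, at 6.21 to 7.35 FPKM against 6.84 to 7.54 FPKM, overlapped between groups. The log2 fold change of Rfc2 was 0.04 without solvent replicate 5, and that of Rfc3 ran from -0.17 to -0.04 with 1 library left out. Rfc4 was listed at 0 in all libraries.

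The 3 subunits of RPA, the complex that coats single-stranded DNA at the fork, differed among themselves. Rpa1, the largest, was at 13.6, 15.1 and 14.7 FPKM against 17.2 and 17.9 FPKM, without overlap (log2 fold change of -0.26 ± 0.06 SE, limma adjusted p = 0.159). Rpa2 was at 3.20, 3.56 and 3.10 FPKM against 4.95 and 5.35 FPKM, further apart (log2 fold change of -0.52 ± 0.08 SE, limma adjusted p = 0.122). Rpa3 was at 11.5, 10.8 and 17.2 FPKM against 12.1 and 11.1 FPKM. These overlapped, and the high value in CBR-5884 replicate 5 came to 72.3% from assembled transcripts. The log2 fold change of Rpa3 was 0.14 (limma adjusted p = 0.741), -0.06 without that library and -0.41 with reference transcripts only.

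**Figure D2:**
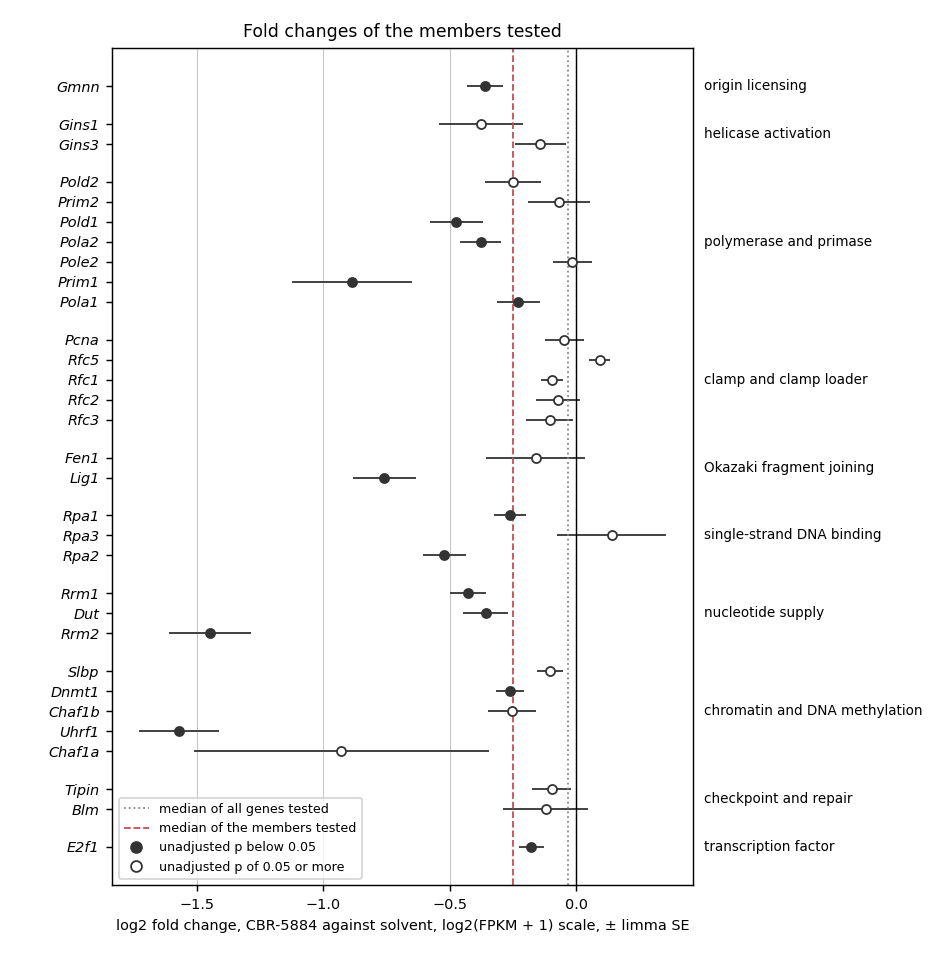
Log2 fold change of CBR-5884 against solvent (points, ± limma SE) for the 31 tested members by role, with the member median (-0.25) and the median of all genes tested (-0.03) as vertical lines. Filled points, the 14 members with an unadjusted p below 0.05, all lie left of 0, and the clamp and clamp loader genes lie close to 0.

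Origin licensing and helicase activation were covered in part. Gmnn, geminin, the inhibitor of Cdt1 that blocks a second licensing, was the only tested licensing gene, at 15.2, 16.3 and 15.2 FPKM against 21.5 and 19.1 FPKM, without overlap (log2 fold change of -0.36 ± 0.07 SE, limma adjusted p = 0.134). In solvent replicate 3, 49.6% of the Gmnn value came from assembled transcripts, and with reference transcripts only the log2 fold change was -0.13. Cdc6, the loader of the helicase (chromosome 11, 98907801 to 98923940, plus strand), was below the testing level, at 0.169, 0.116 and 0.247 FPKM with CBR-5884, compared with 1.24 and 0.978 FPKM with solvent. Every solvent library was several times above every CBR-5884 library, and 16.0% of the solvent mean was left, the least of any member. Orc1, a subunit of the origin recognition complex, was at 0.0458 to 0.199 FPKM against 0.256 to 0.344 FPKM. Gins1 was at 2.30, 1.78 and 2.62 FPKM against 2.77 and 3.61 FPKM (log2 fold change -0.38, limma adjusted p = 0.309), and Gins3 at 1.51, 1.54 and 1.53 FPKM against 1.78 and 1.80 FPKM (log2 fold change -0.14, limma adjusted p = 0.481). Both GINS subunits were apart, Gins1 by little more than the spread and with a log2 fold change of -0.23 without solvent replicate 5. Orc6 and Cdc45 were listed at 0 in all libraries.

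Of the checkpoint and repair genes only Tipin and Blm were tested. Tipin, part of the complex that protects the fork, was at 4.51, 5.15 and 5.07 FPKM against 5.27 and 5.36 FPKM (log2 fold change -0.10, limma adjusted p = 0.528, and -0.05 without CBR-5884 replicate 3). Blm, the helicase of Bloom syndrome, was at 1.36, 1.75 and 1.07 FPKM against 1.49 and 1.69 FPKM and overlapped (log2 fold change -0.12, limma adjusted p = 0.713). Without CBR-5884 replicate 4 the value for Blm was -0.23, without replicate 5 -0.02, and without solvent replicate 5 -0.06. The transcription factor E2f1, a driver of S phase genes, was at 8.15, 7.86 and 8.17 FPKM against 9.23 and 9.25 FPKM. Its libraries were tight within groups and apart between them (log2 fold change -0.18, limma adjusted p = 0.179), and the sign turned with reference transcripts only (0.10) and with the most abundant one (0.25).

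All 9 members above 0 but below the testing level had lower values in every CBR-5884 library than in either solvent library. Cdc6, Clspn, Rad51ap1, Pole, Chek1, Orc1, Brca1, Exo1 and Tyms had 16.0% to 65.3% of the solvent mean left. The filter reads the mean over all 5 libraries, so low CBR-5884 values can themselves put a gene below it. Cdc6, Clspn, Rad51ap1, Tyms and Brca1 had solvent means of 1.11, 1.70, 1.07, 1.19 and 1.12 FPKM, above the level of 1. The counts for this group are therefore descriptions. Among the 9909 genes with a mean FPKM above 0 and under 1, 11.3% were lower without overlap and 5.48% higher. Clspn, claspin, the adaptor that relays the fork signal to the checkpoint kinase Chek1, was at 0.328, 0.312 and 0.364 FPKM against 1.16 and 2.24 FPKM, 19.7% of the solvent mean. In solvent replicate 5, 48.1% of the Clspn value came from assembled transcripts, and its reference transcript alone stood at 1.16 FPKM. Rad51ap1 was at 0.157, 0.277 and 0.465 FPKM against 0.987 and 1.16 FPKM, 27.9% of the solvent mean. Chek1 itself had 37.6% left, at 0.0704 to 0.403 FPKM against 0.704 to 0.738 FPKM. The repair genes Brca1, at 0.482 to 0.694 FPKM against 0.961 to 1.27 FPKM, and Exo1, at 0.118 to 0.154 FPKM against 0.245 to 0.268 FPKM, had 52.4% and 55.3%. For Brca1, 100% of the value in solvent replicate 3 and 60.6% in CBR-5884 replicate 3 came from assembled transcripts. Its only reference transcript is listed at 0 in that solvent library, and no level is read from that zero. A mean at or under 50% of solvent was found in 6 of these 9, where 24.3% of genes at that level had one. In a limma fit without the filter, 9 of 9 were lower at an unadjusted p below 0.05, as were 4.88% of genes at that level, and 0 were called, with adjusted p from 0.0842 (Cdc6) to 0.363 (Tyms).

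Members of lower level had the larger ratios. Of the 19 members with a mean of at least 5 FPKM, 17 had a negative log2 fold change, where 56.6% of all genes at that level did, and their median was -0.16. Of the 12 members at 1 to 5 FPKM, 12 were negative, where 53% of all such genes were, with a median of -0.45. Only 4 of the 31 tested members had 50% or less of the solvent mean left (2.76% of all genes tested), namely Uhrf1, Rrm2, Prim1 and Chaf1a. The share of Chaf1a rests on its library listed at 0, from which no level is read. That of Prim1 rests in part on solvent replicate 3, at 6.14 FPKM where solvent replicate 5 had 3.33 FPKM. All 4 were at 1 to 5 FPKM, where 5.25% of all genes had as little. These levels are means over all 5 libraries, so low CBR-5884 values themselves place a gene at a lower level. Rrm2, Lig1 and Rpa2 had solvent means of 6.12, 5.43 and 5.15 FPKM but counted at 1 to 5 FPKM. The link of level and ratio is therefore in part set by this grouping. Beyond the genes that the rule for named genes picked, names here and among the members under the testing level were chosen after their values were seen.

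**Figure D3:**
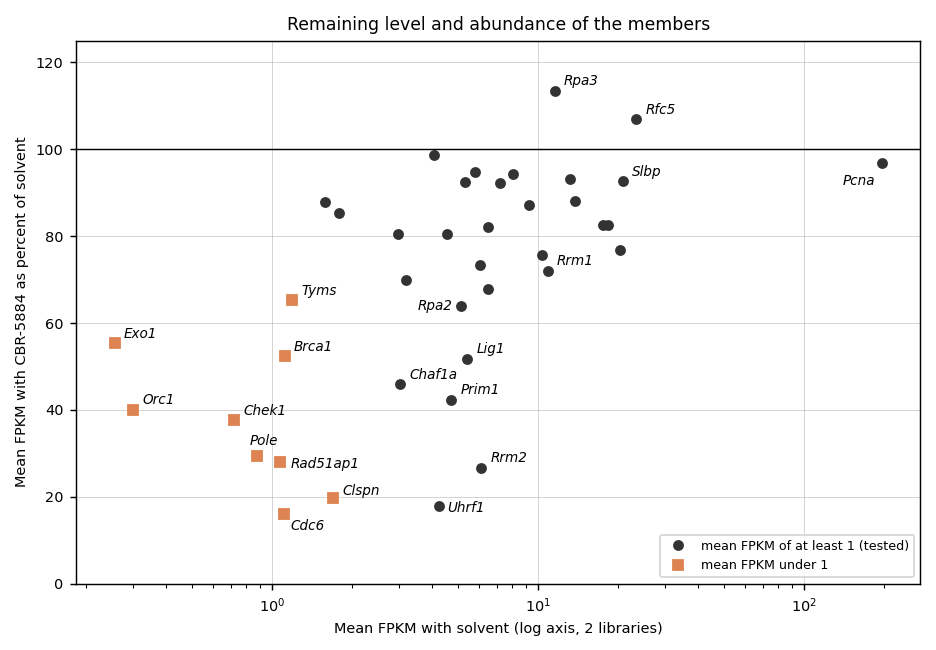
Mean FPKM with CBR-5884 as a percent of the solvent mean against the mean FPKM with solvent (log axis) for the 40 members above 0, with tested members as circles and those under a mean of 1 FPKM as squares. Members under 10 FPKM with solvent spread from 16.0% (Cdc6) upward. Above 10 FPKM, Pcna, Rfc5 and Slbp lie near 100%, while Rrm1, Dut, Gmnn, Rpa1 and Dnmt1 lie at 72.1% to 82.6%.

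Within a library, the deposited 95% interval of each gene's most abundant reference transcript gives the estimation error. Over the 40 members above 0, all CBR-5884 intervals lay below all solvent intervals for 10, namely Cdc6, Pold1, Pole, Fen1, Lig1, Rpa2, Rrm1, Rrm2, Clspn and Rad51ap1, and above them for 0. By the same reading, 2.54% of all 20512 genes with such a transcript were lower and 1.91% higher. Of the 19 members with 1 reference transcript, where the interval covers every reference transcript of the gene, 5 were lower (Pold1, Rpa2, Rrm1, Rrm2 and Clspn) and 0 higher, against 2.33% and 1.62% of all such genes. The Fen1 interval covers 1 of its 4 reference transcripts, and its gene values overlapped. The Rrm2 intervals reached at most 2.42 FPKM with CBR-5884 and began at 5.43 FPKM with solvent. For Rrm1 these bounds were 8.82 and 10.1 FPKM. Uhrf1 is not in this group, since its most abundant transcript was listed at 0 in CBR-5884 replicate 3 and solvent replicate 3, where other transcripts of the gene carried its value. Within same-numbered libraries, 28 of 31 members were lower with CBR-5884 for replicate 3 (median log2 difference -0.19) and 29 of 31 for replicate 5 (-0.25). Over all genes tested, 55.0% and 55.7% were lower, with medians of -0.03 in both. Solvent replicate 5 was the highest library for 20 of the 31 members, where it was highest for 26.3% of all genes. Without it, 25 of 31 members were negative and the median was -0.21.

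Several members overlap other genes, and the strand setting of the counting is not given in the sources used here, although the library kit was directional. Exons of 12 of the 44 members overlap a gene on the opposite strand. The members listed at 0 in some library were all among these: 5 of the 12, against 0 of the 32 without such an overlap. Orc6 overlaps Vps35 by 171 bases, Cdc45 overlaps Ufd1 by 209, Rfc4 overlaps Eif4a2 by 194, Tk1 overlaps Afmid by 83 and Chaf1a overlaps Ubxn6 by 4648. A value of exactly 0 can be a failed estimate, so no level is read from these zeros. The values of the other overlapped members (Orc1, Pole, Rfc2, Rfc5, Fen1, Lig1 and Slbp) are uncertain for the same reason.

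Other genes of the cell cycle set the members in context. The 6 MCM helicase genes were all negative, where 55.7% of all genes tested were, with a median log2 fold change of -0.80, or -0.72 over the 5 without Mcm7. Mcm7, called lower (limma adjusted p = 0.00377), had 7.34 and 8.15 FPKM with solvent and is listed at 0 in every CBR-5884 library, so its call rests on 3 exact zeros from which no level is read. Mcm2 was at 3.26 to 3.50 FPKM against 6.82 to 7.56 FPKM. Of 50 further replication genes, 34 were tested, 21 were negative and 13 positive, with a median of -0.16 and 0 called. Their smallest p belonged to Gins4, the fourth GINS subunit, at 12.1, 11.5 and 12.3 FPKM against 15.6 and 15.2 FPKM (limma adjusted p = 0.119), followed by the histone chaperone Asf1b, at 1.99, 2.04 and 2.48 FPKM against 3.76 and 4.50 FPKM (adjusted p = 0.130).

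Regulators upstream of S phase were mixed in direction. Of 20 tested G1/S regulators, 13 were negative and 7 positive, the median was -0.09 and 0 were called. Ccnd1, cyclin D1, had the smallest p, at 11.1, 13.4 and 13.6 FPKM against 22.1 and 25.5 FPKM (log2 fold change -0.86, limma adjusted p = 0.101), and Ccne1, cyclin E1, was at 1.87 to 2.33 FPKM against 3.01 to 3.51 FPKM. Of 6 tested CDK inhibitors, 3 were negative and 3 positive (median 0.06, 0 called). The smallest p belonged to Cdkn2d, at 4.73 to 4.97 FPKM against 6.63 to 8.24 FPKM (limma adjusted p = 0.132). Cdkn2c was next, at 8.21 to 10.3 FPKM against 10.5 to 10.9 FPKM (adjusted p = 0.327). Of 13 tested p53 targets, 8 were negative and 5 positive (median -0.02, 0 called). First by p were Bax, at 99.0 to 108.2 FPKM against 121.1 to 121.7 FPKM (limma adjusted p = 0.153), and Sesn2, at 3.62 to 4.21 FPKM against 5.13 to 5.25 FPKM (adjusted p = 0.154).

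Genes of the later cell cycle were given for comparison. All 19 tested G2/M genes were negative, with a median of -0.57 and 1 called, Ube2c, the ubiquitin-conjugating enzyme of the anaphase-promoting complex, at 0.514, 0.720 and 0.510 FPKM against 4.27 and 4.14 FPKM (limma adjusted p = 0.0409). Over all genes tested, 55.7% were negative and 0.176% were called lower. Ube2c and some others reached the testing level through their solvent libraries alone, so the count of negative genes is a description. Ccna2, cyclin A2, was next, at 2.13 to 2.26 FPKM against 4.33 to 5.11 FPKM (adjusted p = 0.0857). Of the replication-dependent histone genes, whose mRNAs Slbp binds, 6 were tested, 4 were negative and 2 positive (median -0.19, 0 called), with Hist1h4i at 1.31 to 2.32 FPKM against 2.53 to 2.73 FPKM and Hist1h1c at 41.0 to 58.3 FPKM against 51.7 to 67.1 FPKM.

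**Figure D4:**
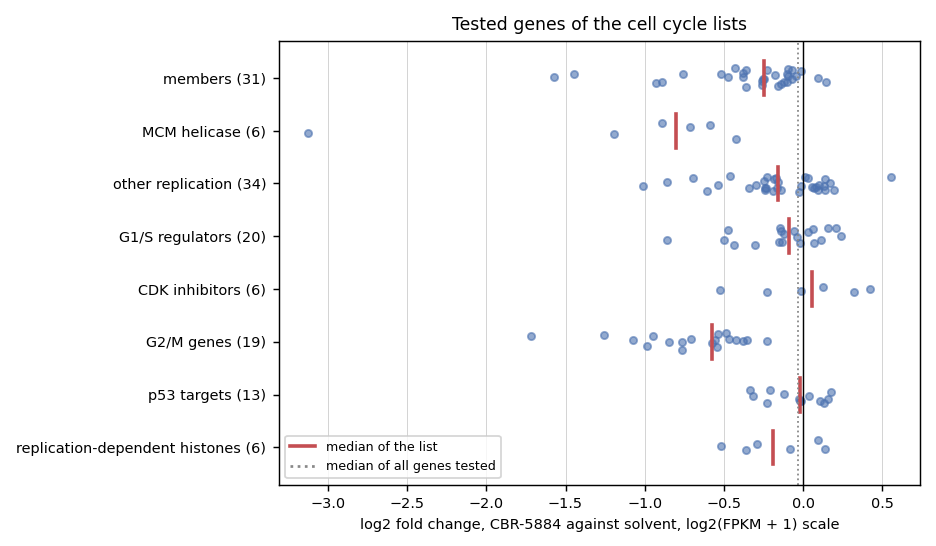
Log2 fold change of each tested gene (points, jittered vertically) in the members and in 7 further lists, with the number of tested genes in brackets, the median of each list as a red bar and the median of all genes tested as a dotted line. The medians run from -0.80 (MCM helicase, -0.72 without Mcm7) and -0.57 (G2/M) through -0.25 (members) to 0.06 (CDK inhibitors), and the point near -3 is Mcm7, whose CBR-5884 values are all listed at 0.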

How the data were processed

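RNA of 5 libraries was sequenced as single reads of 75 bp from a directional kit, per the labels' protocols. The submitters' processing notes name TopHat2, Bowtie2 and Cufflinks and the build mm10 (GRCm38); the sources used here give no versions, no annotation release and no strand setting. The deposited FPKM values, their 95% intervals and their coverage were written per transcript by the authors' Cufflinks run in each library. They had not been normalized between libraries by any step recorded per the file headers.

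Reference transcripts were matched to genes through GENCODE M21 (99.5% matched). Assembled transcripts of at least 200 nt joined the gene on their strand that held at least 50% of their exonic bases. The transcripts left out held 64.0% to 70.3% of summed FPKM but 8.55% to 10.2% of covered bases. Assembled transcripts entered the value of 18 of the 31 tested members. Gene FPKM was the sum over transcripts.

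Genes with a mean of at least 1 FPKM were fitted with limma 3.58.1 (R 4.3.3, lmFit, eBayes with trend, two-sided) on log2(FPKM + 1), CBR-5884 (3) against solvent (2), with Benjamini-Hochberg adjustment over all genes tested and a threshold of 0.05. The fit was tested on simulated data. The precision of low genes is limited by depth, which is known only as implied by coverage.

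The members and lists were chosen with earlier results of these data known. In each role, values in every library are given for the most abundant tested member and the 2 with the smallest p, for any member called or positive, and for all members of roles of 3 or fewer. In other lists, the 2 genes with the smallest p are given by their values or by the range in each group. Of 18 alternatives, 17 were planned and 1, the length-weighted sum, was chosen after seeing the data. Promoters are from RefSeq (GRCm38.p6).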

Additional observations from a re-analysis of the deposited data

How the results depend on the processing

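Over 18 alternatives (pseudocount, filter, scaling, transcripts summed, variance trend, replicate block and each library left out), 20 of the 31 tested members kept the sign of their log2 fold change in every one that tested them. A total of 388 values of the 22 named members gave 9 reversals, in 6 genes, and the other 9 tested members gave 16, in 5 genes (Chaf1b, Pola1, Pole2, Prim2 and Rfc2). With reference transcripts only, E2f1 had 0.10 and Rpa3 -0.41. With the most abundant reference transcript, E2f1 had 0.25, Rpa3 -0.41, Dnmt1 0.17 and Rfc1 0.064. With 1 library left out, Rpa3 ran from -0.055 (without CBR-5884 replicate 5) to 0.26, Fen1 from -0.40 to 0.075 and Pcna from -0.13 to 0.038 (both highest without solvent replicate 5). Their cause was not tested. Members called lower were 0 in all settings but the length-weighted sum, which gave 1 (Uhrf1). Negative members numbered 26 of 31 with reference transcripts only, 23 of 30 with the most abundant one, 17 of the 19 left at a mean FPKM of at least 5 and 25 to 29 with a library left out. The member median was -0.14 with a pseudocount of 5, -0.16 at a mean of at least 5, -0.20 with quantile normalization and -0.27 to -0.21 with a library left out.

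Of all genes, 19 were called lower and 5 higher. Lower calls were 11 with a pseudocount of 0.1, 33 without a filter, 6 at a mean of at least 5 and 45 with the length-weighted sum. Higher calls were 3 with a pseudocount of 5, 3 at a mean of at least 5, 19 with reference transcripts only, 14 with the most abundant one and 23 with the length-weighted sum. With a library left out, lower calls were 12 to 82 (12 without CBR-5884 replicate 4, 82 without solvent replicate 3, 56 without solvent replicate 5) and higher calls 7 to 12. Leaving out a solvent library leaves that group with 1, assumed to vary like the other group. Same-numbered libraries had correlations of deviations of 0.07 and 0.08. With 2 solvent libraries the deviations mirror each other, so these values cannot settle a pairing, and the main fit used none. The replicate block gave 1 lower and 2 higher calls over all genes, 28 negative members and a median of -0.24.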
